A study of Mus musculus with 30 samples.

Results

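Gdi2, Sugct, A1cf, Abhd1, BC018473, Ppfibp1, Pttg1, H1f2, Upp2 and Slc5a6 are 10 mouse genes with a probe that set the liver arrays labelled KO apart from the other liver arrays. They were chosen on the liver KO values themselves, so those values are given here as a description and carry no test. All probes that the platform annotation assigns to these symbols were taken, which gave 18 of 46643 probes, and 10 of 19406 named genes. Gdi2, Ppfibp1 and Upp2 have 3 probes each, Abhd1 and BC018473 have 2 each, and the other 5 genes have 1 each.

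The arrays come from liver and subcutaneous fat of male knock-in mice with altered growth hormone receptors, killed at 4 months of age after a night without food. The 5 genotypes were the normal receptor (WT), receptors ending at amino acid 569 (569) or 391 (391), a receptor with a mutated Box1 (Box1), the membrane-proximal motif to which the kinase JAK2 binds, and loss of the receptor (KO). Each genotype had 3 arrays in each tissue, 30 in all. Nothing in the labels ties an array to an animal of its own. The p-values therefore cover the spread from array to array, part of which may be technical.

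The deposited value is a ratio, each probe having been divided by its median across the tissue's 15 arrays, so a value of 1 is that median and no absolute level remains. Levels of different genes, or of liver and fat, therefore cannot be compared, and the tissue labels cannot be checked against marker genes. In pieces of tissue, fewer cells of a type and less RNA per cell cannot be told apart. In each tissue 1 slide held WT and 569 and another held 391 and KO, while a single slide held the Box1 arrays of both tissues. KO against 391 was thus a comparison within a slide in liver and in fat. In comparisons across slides, slide and genotype cannot be told apart.

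Several arrays stood apart or, on the first probe of Ghr, went against their labels. That probe of Ghr, the targeted gene, was low in the liver arrays labelled Box1 (0.23 to 0.30). It was not low in the liver arrays labelled KO (1.09 to 1.51). The second Ghr probe was low in neither (0.96 to 1.28 in liver Box1, 0.81 to 1.4 in liver KO). In fat KO had the lowest median on the first probe (0.29 to 1.12) and 391 on the second (0.27 to 0.47). The Ghr probes therefore did not point to the same label. Where they lie relative to the deleted part is not given in the sources used here. Igf1 was low in liver 391 (0.43 to 0.61), Box1 (0.44 to 0.57) and KO (0.68 to 1.15) beside WT (18.39 to 20.72). Liver 391 replicates 2 and 3 carried pancreatic transcripts (mean log2 ratio of 13 markers 3.43 and 2.57). Fat 569 replicate 3 was low in adipocyte markers (mean log2 ratio of 7 markers -2.53), and the mean log2 ratio of 10 skeletal muscle markers ranged from -3.09 to 4.72 over the fat arrays. The pattern described below was carried by the arrays labelled KO in liver and by those labelled 391 in fat. Whether the 2 labels stand for the same mouse line in both tissues was not tested, and each label is used here as given.

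The 10 genes belong to no common pathway. Growth hormone acts on liver through its receptor, which activates JAK2 and the transcription factor STAT5, and liver is a main source of circulating IGF1. Some of the genes have well-known roles: Gdi2 extracts Rab proteins, the switches of vesicle traffic, from membranes for reuse, Pttg1 is securin, the inhibitor of separase until anaphase, and H1f2 is a replication-dependent linker histone that binds DNA between nucleosomes. A1cf, Upp2, Sugct and Slc5a6 serve metabolism, as the RNA-binding partner in the editing of apolipoprotein B messenger RNA, a uridine phosphorylase, a coenzyme A transferase that acts on glutarate, and the sodium-dependent carrier of biotin and pantothenate. Ppfibp1 is a liprin of cell adhesion sites. The RefSeq table lists Abhd1, a relative of alpha/beta hydrolases, as a transcribed pseudogene in the mouse, and BC018473 as a long non-coding RNA.

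RefSeq promoter sequences (GRCm38.p6) were found for 8 of the 10 genes, which gave 10 promoters with the 250 bases before each start site. The motifs searched were, on both strands, TTCNNNGAA, the palindrome of STAT5 sites, TATAAA, the TATA box, and CCAAT, the CCAAT box. They occur in 7.02%, 12.4% and 33.8% of all 32851 promoters of this length, and in 0, 1 and 6 of the 10 promoters here. A match is a description of the letters and not a site. The sequences below are shown because Gdi2, H1f2 and Pttg1 were low in liver KO and in fat 391, whereas A1cf and Upp2 stood apart in liver alone. Capitals mark a motif. Gdi2 lies at chr13:3537825-3538074 on the plus strand, H1f2 at chr13:23738557-23738806 on the plus strand, Pttg1 at chr11:43425982-43426231 on the minus strand, A1cf at chr19:31868563-31868812 on the plus strand, and the downstream promoter of Upp2 at chr2:58754934-58755183 on the plus strand.
Gdi2: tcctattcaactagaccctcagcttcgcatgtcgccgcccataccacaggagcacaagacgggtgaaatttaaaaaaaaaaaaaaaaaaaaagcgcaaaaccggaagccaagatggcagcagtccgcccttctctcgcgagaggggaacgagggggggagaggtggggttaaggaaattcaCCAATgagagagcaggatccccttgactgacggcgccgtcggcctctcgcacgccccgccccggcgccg
H1f2: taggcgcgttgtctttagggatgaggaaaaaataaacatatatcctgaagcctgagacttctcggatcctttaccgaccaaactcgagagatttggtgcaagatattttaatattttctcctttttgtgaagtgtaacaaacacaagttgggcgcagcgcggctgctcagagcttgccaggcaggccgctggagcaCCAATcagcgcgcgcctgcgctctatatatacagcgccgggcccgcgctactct
Pttg1: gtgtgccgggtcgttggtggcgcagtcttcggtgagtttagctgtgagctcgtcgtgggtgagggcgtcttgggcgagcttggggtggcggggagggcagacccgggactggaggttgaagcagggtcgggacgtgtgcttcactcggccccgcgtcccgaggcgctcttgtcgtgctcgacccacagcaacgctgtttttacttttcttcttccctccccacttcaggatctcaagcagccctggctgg
A1cf: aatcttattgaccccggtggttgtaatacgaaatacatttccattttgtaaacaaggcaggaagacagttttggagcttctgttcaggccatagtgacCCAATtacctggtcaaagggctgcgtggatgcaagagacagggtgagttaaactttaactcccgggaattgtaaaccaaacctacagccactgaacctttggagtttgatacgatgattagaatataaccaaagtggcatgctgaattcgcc
Upp2: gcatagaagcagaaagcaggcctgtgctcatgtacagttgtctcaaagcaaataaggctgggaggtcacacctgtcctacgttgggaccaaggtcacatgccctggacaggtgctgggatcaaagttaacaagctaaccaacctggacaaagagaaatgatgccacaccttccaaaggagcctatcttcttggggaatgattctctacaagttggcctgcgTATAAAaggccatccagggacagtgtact
The capitals are CCAAT in Gdi2, H1f2 and A1cf and TATAAA in Upp2. Pttg1 held none of the motifs. The upstream promoter of Upp2 and those of Ppfibp1 and of 1 Slc5a6 start also held a CCAAT or its complement, so the motif was present in genes that were low and in genes that were high in liver KO.

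In liver, the arrays labelled KO lay wholly outside the range of the other 12 arrays for 13 of the 18 probes, 5 below and 8 above, and each of the 10 genes had at least 1 such probe. Of all 46643 probes 1.12% lay apart in this way, and since the genes were chosen on these values nothing is read from the count. The same holds for the fitted differences, tested with limma: 9 of the 18 probes were called in KO against 391 (0.18% of all probes), 13 against WT (1.93%), 9 against Box1 (0.148%) and 13 against 569 (4.29%). A probe is called where its Benjamini-Hochberg adjusted p over all probes is under 0.05. The median size of the difference between KO and 391 was 1.69 over the 18 probes and 0.08 over all probes (log2).

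Gdi2 showed the largest liver fall of the 10 genes, on 1 of its 3 probes. Its first probe gave ratios of 0.13, 0.14 and 0.13 in KO, against a lowest of 0.64, a median of 1.08 and a highest of 1.47 in the other 12 arrays. KO lay below 391 by 3.22 ± 0.16 on the log2 scale (SE from the limma fit, 3 arrays a group, as for all differences here), a 9.31-fold difference within a slide. All KO arrays were far below all others. The second probe gave 1.2, 1 and 1 in KO, and the third 0.93, 1.13 and 0.95. Neither stood apart, and the probes of this gene therefore did not agree.

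Pttg1, which restrains separase, gave ratios of 0.38, 0.39 and 0.38 in liver KO, against 0.85 to 1.43 with a median of 1.02 in the other arrays. The 3 KO values were within 0.01 of each other and below every other array, and KO lay below 391 by 1.42 ± 0.15. H1f2 gave 0.27, 0.23 and 0.29 in KO, against a lowest of 0.63, a median of 1 and a highest of 3.03, the last in 391 replicate 2, which also carried pancreatic and muscle transcripts. KO lay below 391 by 2.53 ± 0.33. H1f2 belongs to a family of related histone genes, and whether its probe also reads others of them is not given in the sources used here.

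Among the metabolic genes, Sugct gave 0.16, 0.16 and 0.18 in liver KO, against a lowest of 0.55, a median of 1.07 and a highest of 1.63, and KO lay below 391 by 2.72 ± 0.20. The Box1 arrays (1.42, 1.32 and 1.63) lay above all other livers, so Sugct was the only one of the 10 genes for which a genotype other than KO stood apart in liver. Over all probes 0.716% lay apart in liver Box1, 0.626% in WT, 1.63% in 569 and 0.637% in 391. The genes were chosen for standing apart in KO, and nothing is read from this count. A1cf gave 0.24, 0.23 and 0.26 in KO, against 0.82 to 1.86 with a median of 1.13, and KO lay below 391 by 2.46 ± 0.16. For both genes every KO array was below every other array.

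Upp2 was high in liver KO on all 3 probes. The third probe gave 5.51, 3.91 and 3.80 in KO, against a lowest of 0.30, a median of 0.83 and a highest of 1.86. The first gave 4.41, 3.71 and 3.41, and the second 4.90, 4.07 and 4.15. No KO array overlapped with the others, but the other livers were themselves spread widely, from 0.44, 0.30 and 1 in WT to 1.86, 1.11 and 0.84 in Box1 on the third probe. The SE of KO against 391 was large (2.08 ± 0.46 on the third probe, 2.13 ± 0.42 on the second and 2.13 ± 0.41 on the first). None of these 3 differences was called (limma adjusted p = 0.11, 0.062 and 0.056). Without both 391 arrays that carried pancreatic transcripts these differences were 1.31, 1.32 and 1.40. Slc5a6 had the smallest difference of the 10 genes, with 2.32, 2.01 and 1.87 in KO against a lowest of 0.56, a median of 0.91 and a highest of 1.25. The other group with the highest mean was 391, at 1.25, 1 and 1.07, and KO lay above it by 0.90 ± 0.19. Slc5a6 was not called in this comparison either (limma adjusted p = 0.078).

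Abhd1 was high in liver KO on both probes. Ratios were 5.32, 4.83 and 5.48 on the first, against 0.61 to 1.84 with a median of 0.93 in the others, and 3.69, 3.37 and 3.63 on the second, against 0.76 to 1.86 with a median of 0.88. KO lay above 391 by 1.85 ± 0.18 and 1.43 ± 0.16. The highest other array on both probes was 391 replicate 2 (1.84 and 1.86), which carried pancreatic and muscle transcripts, and the part of these transcripts in those values was not tested.

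BC018473 and Ppfibp1 were each high in liver KO on 1 probe. The first BC018473 probe gave 2.77, 4.22 and 4.15 in KO, against 0.90 to 1.33 with a median of 0.99, and KO lay above 391 by 1.94 ± 0.14. Its second probe gave 1.02, 1.19 and 0.93, inside the range of the other arrays but for 1 value. The third Ppfibp1 probe gave 2.77, 2.91 and 2.57 in KO, against 0.72 to 1.18 with a median of 0.94, and KO lay above 391 by 1.52 ± 0.13. The first and second Ppfibp1 probes stayed at 0.93 to 1.13 and 1 to 1.12 in KO, within the range of the other livers.

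**Figure D1:**
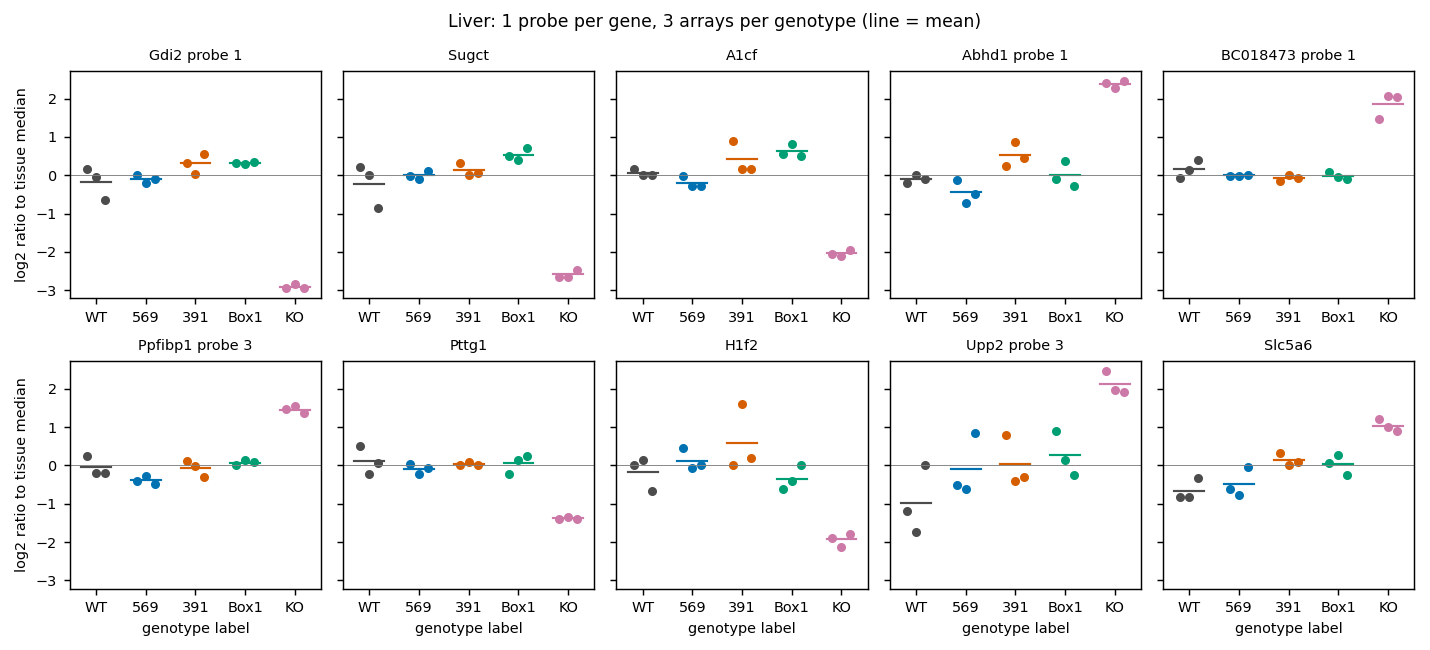
Log2 ratio to the tissue median (vertical axis) in the 15 liver arrays, by genotype label (horizontal axis), for the probe of each gene with the largest liver difference; points are arrays and lines are means of 3. The KO arrays lie below all others for Gdi2, Sugct, A1cf, Pttg1 and H1f2 and above all others for the remaining 5 genes.

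Choosing the genes for standing apart in liver KO can favour small differences among the other livers. The counts among those livers are therefore a description. limma called 2 of the 18 probes in 391 against WT, where 1.91% of all probes were called, 0 in Box1 against WT (1.32%) and 0 in 569 against WT (0.00858%). At an unadjusted p under 0.05 there were 8, 7 and 3 of the 18, where 12.4%, 12.3% and 7.01% of all probes had such a p. The median sizes of difference were 0.356, 0.228 and 0.215 over the 18 probes (log2), beside 0.089, 0.089 and 0.08 over all probes. The 2 probes called in 391 were Slc5a6, which rose by 0.81 ± 0.19 (0.56, 0.56 and 0.79 in WT, adjusted p = 0.038), and the second Abhd1 probe, which rose by 0.69 ± 0.16 (0.87, 0.77 and 0.82 in WT against 1.2, 1.86 and 1.03 in 391, adjusted p = 0.044). Their 391 arrays did not overlap with WT. These groups lay on different slides, and the count was 1 or 0 when any array of WT or 391 was left out and 0 with quantile normalization.

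In fat, the arrays that stood apart on these genes were those labelled 391. They lay wholly outside the range of the other 12 fat arrays for 7 of the 18 probes, which belong to 5 genes: Gdi2 and Pttg1 below, and Abhd1 (both probes), BC018473 (both probes) and Ppfibp1 (the third probe) above. Of all probes 0.667% lay apart in this way. The fat arrays labelled KO lay apart for 0 of the 18 probes, against 0.472% of all probes. The arrays labelled WT, 569 and Box1 lay apart for 0 as well, against 0.399%, 0.984% and 0.212% of all probes. With shares this small, 0 of 18 says little about these genes. All 6 probes apart in both liver KO and fat 391 went the same way in both. Over all probes 35 of the 36 apart in both did so, so this is no trait of these genes.

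Gdi2 was as low in fat 391 as in liver KO on its first probe, with ratios of 0.15, 0.09 and 0.10, whereas the fat KO arrays gave 1.09, 1.04 and 1. The other 12 fat arrays ran from 0.43 to 1.26 with a median of 1.07. Gdi2 fell by 3.24 ± 0.36 in 391 against KO within the slide (-3.18 ± 0.39 SD in 391 and 0.06 in KO, limma adjusted p = 0.0096) and by 2.96 ± 0.36 against WT (adjusted p = 0.029). The second probe and the third probe gave 1.18, 1.11 and 1.02, and 0.96, 0.85 and 0.85, in fat 391 and were not called. The disagreement between the Gdi2 probes was thus present in both tissues.

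Pttg1 gave ratios of 0.35, 0.31 and 0.28 in fat 391, against 0.94, 1.04 and 1 in fat KO and 0.85 to 1.57 over the other 12 arrays. It fell by 1.67 ± 0.17 against KO (-1.68 ± 0.16 SD in 391, adjusted p = 0.0062) and by 1.83 ± 0.17 against WT (adjusted p = 0.0045). No fat 391 array overlapped with any other. These were the 2 probes called in fat 391 against KO, where limma called 0.0172% of all probes (8), and also the 2 called in 391 against WT (0.0129%, 6 probes). At an unadjusted p under 0.05 there were 9 and 11 of the 18, where 6.7% and 4.58% of all probes had such a p. The calls rest on few arrays: in 391 against KO the count was 0 without 391 replicate 2 or KO replicate 2 and 1 without KO replicate 1 or KO replicate 3, with adjusted p up to 0.10 for Gdi2 and 0.072 for Pttg1. In 391 against WT it was 0 without 391 replicate 2 or WT replicate 1, 1 without WT replicate 2, 391 replicate 1 or 391 replicate 3, and 3 without WT replicate 3. Quantile normalization gave 7 called probes against KO and 4 against WT.

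The other comparisons in fat called none of the 18 probes. limma called 0 in KO against WT (0.0% of all probes), 0 in Box1 against WT (0.00214%) and 0 in 569 against WT (0.0%). At an unadjusted p under 0.05 there were 2, 0 and 2 of the 18, beside 6.24%, 4.54% and 8.96% of all probes. Gdi2 differed by 0.28 ± 0.36 and Pttg1 by -0.16 ± 0.17 between fat KO and WT.

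Abhd1, BC018473 and Ppfibp1 stood above the other fat arrays in 391 without passing the test. Abhd1 gave 2, 2.32 and 1.70 on its first probe, against 0.90, 0.75 and 0.99 in KO and at most 1.44 elsewhere (1.19 ± 0.19 against KO, adjusted p = 0.086). On its second probe it gave 1.37, 1.60 and 1.39, against 1.15, 0.84 and 0.94 in KO (0.58 ± 0.14, adjusted p = 0.42). No 391 array overlapped with another array on either probe. The third Ppfibp1 probe gave 3.62, 1.71 and 3.10 in 391 and 1.02, 1.17 and 1.48 in KO (1.15 ± 0.39, adjusted p = 0.61).

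BC018473 had the highest ratios of the 10 genes. Its first probe gave 20.83, 13.96 and 11.01 in fat 391, against 1.11, 0.88 and 1 in KO (3.89 ± 0.66, adjusted p = 0.12). A single array of another genotype was high too, WT replicate 3 at 8.99, while the other WT arrays stood at 1.01 and 0.83. The difference of 391 from WT was 2.91 ± 0.66 with that array (adjusted p = 0.5) and 4.01 without it (adjusted p = 4.8e-05). The second probe gave 1.86, 1.33 and 1.41 in 391 and 0.95, 0.93 and 1.11 in WT (0.61 ± 0.13, adjusted p = 0.46), so it was above the other arrays in fat 391, although in liver KO it was not.

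Sugct and H1f2 were low in fat 391 but overlapped with other arrays. Sugct gave 0.42, 0.37 and 0.44 in 391 and 0.90, 1.21 and 1.13 in KO (-1.39 ± 0.39, adjusted p = 0.5), and the overlap came from 569 replicate 3 at 0.43, the array with low adipocyte markers. H1f2 gave 0.47, 0.26 and 0.52 in 391 and 1.01, 1.13 and 1.44 in KO (-1.56 ± 0.40, adjusted p = 0.48), and it touched WT replicate 3 at 0.52. Within the slide every 391 array lay below every KO array for both genes.

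A1cf, Upp2 and Slc5a6 were not called in fat, and their 391 and KO arrays overlapped or touched. A1cf gave 1.11, 1 and 1.19 in fat 391 and 0.91, 0.95 and 1.10 in fat KO (0.16 ± 0.15, adjusted p = 0.9), against 2.46 ± 0.16 between the groups in liver. The 3 Upp2 probes ran from 0.79 to 1.24 over all fat arrays, and 391 differed from KO by 0.04 ± 0.17 to 0.17 ± 0.14. Slc5a6 gave 1, 1.40 and 1.25 in 391 and 0.72, 1 and 0.98 in KO (0.44 ± 0.38, adjusted p = 0.88). Because a ratio keeps no level, a gene that is steady in fat cannot be told from one that is not expressed there.

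**Figure D2:**
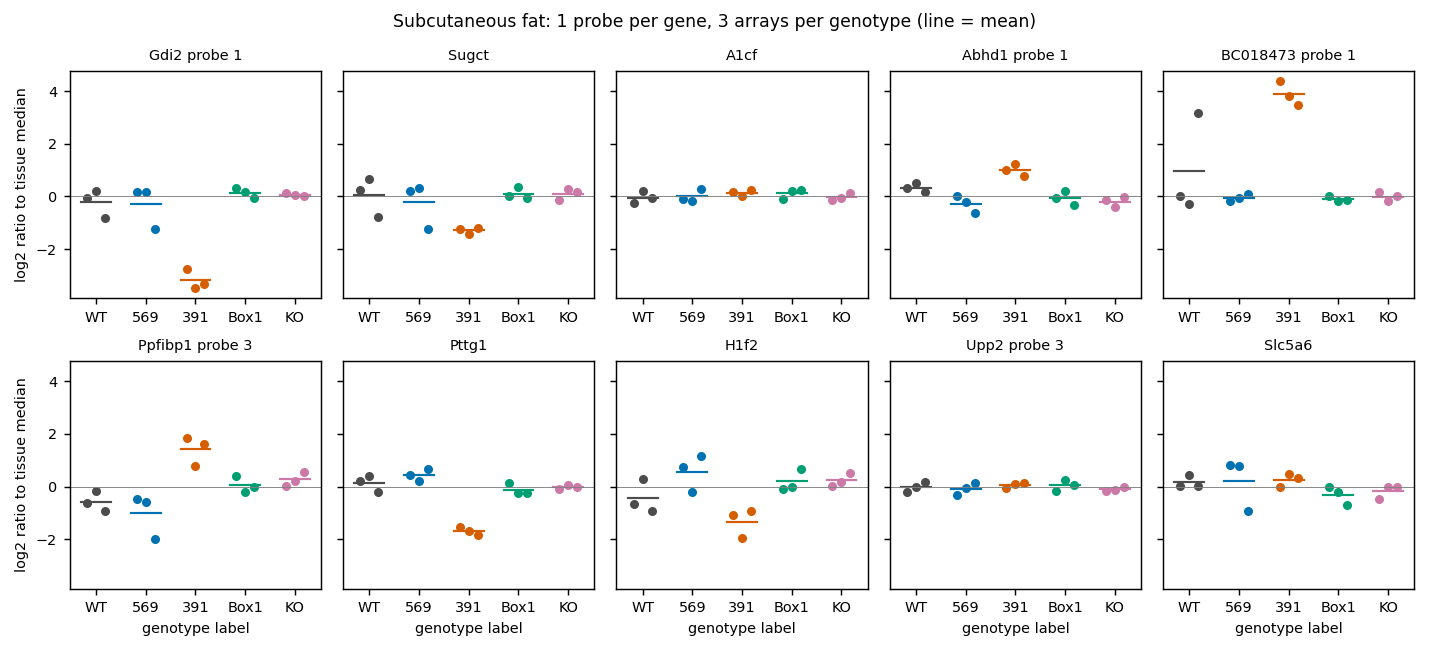
The same probes in the 15 fat arrays, as log2 ratio to the tissue median (vertical axis) by genotype label (horizontal axis); points are arrays and lines are means of 3. The 391 arrays lie apart for Gdi2, Abhd1, BC018473, Ppfibp1 and Pttg1 and the KO arrays for none, while A1cf, Upp2 and Slc5a6 show no separate group.

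Markers of other cell types differed between 391 and KO in both tissues. In liver, pancreatic markers stood at 0.01, 3.43 and 2.57 in 391 (0, 13 and 11 of 13 markers more than 1 log2 unit above the median), and muscle markers at 3.39 in 391 replicate 2 (8 of 10) and near 0 in the other 391 arrays. Without both 391 arrays that carried pancreatic transcripts, 9 of the 18 probes were called in KO against 391, as with them. The liver KO arrays had mean log2 ratios of 0.02 to 0.07 for the pancreatic markers, -0.01 to 0.03 for muscle, 0.07 to 0.60 for lymphocytes (7 markers), 0.07 to 0.38 for macrophages (6 markers) and -0.13 to 0.12 for hepatocytes. In fat, lymphocyte markers stood at 0.00 to 0.71 in 391 and at -2.70 to 0.59 in KO, with 6 of 7 markers more than 1 log2 unit below the median in KO replicates 2 and 3 and 0 of 7 in any 391 array. Muscle markers stood at -0.19 to 1.70 in 391 and at -0.62 to 3.58 in KO, and adipocyte markers at -0.41 to 0.11 and 0.05 to 0.21. Brown adipocyte markers stood at -0.31, 1.98 and 0.02 in 391 (3 of 4 markers more than 1 log2 unit above the median in replicate 2, an array without which the fat calls were lost) and at -0.48 to 0.32 in KO. The part of lymphocyte, muscle and brown adipocyte RNA in the fat values was not tested.

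Both within-slide comparisons used different arrays, so their values can be set side by side. KO minus 391 in liver and 391 minus KO in fat were -3.22 and -3.24 for Gdi2, -1.42 and -1.67 for Pttg1, -2.72 and -1.39 for Sugct and -2.53 and -1.56 for H1f2. They were 1.94 and 3.89 for BC018473, 1.85 and 1.19 for the first Abhd1 probe and 1.52 and 1.15 for the third Ppfibp1 probe. The sizes for Gdi2 differed by less than their SE. For Sugct and H1f2 the size was smaller in fat and for BC018473 it was larger, and whether the sizes differ between the tissues was not tested.

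**Figure D3:**
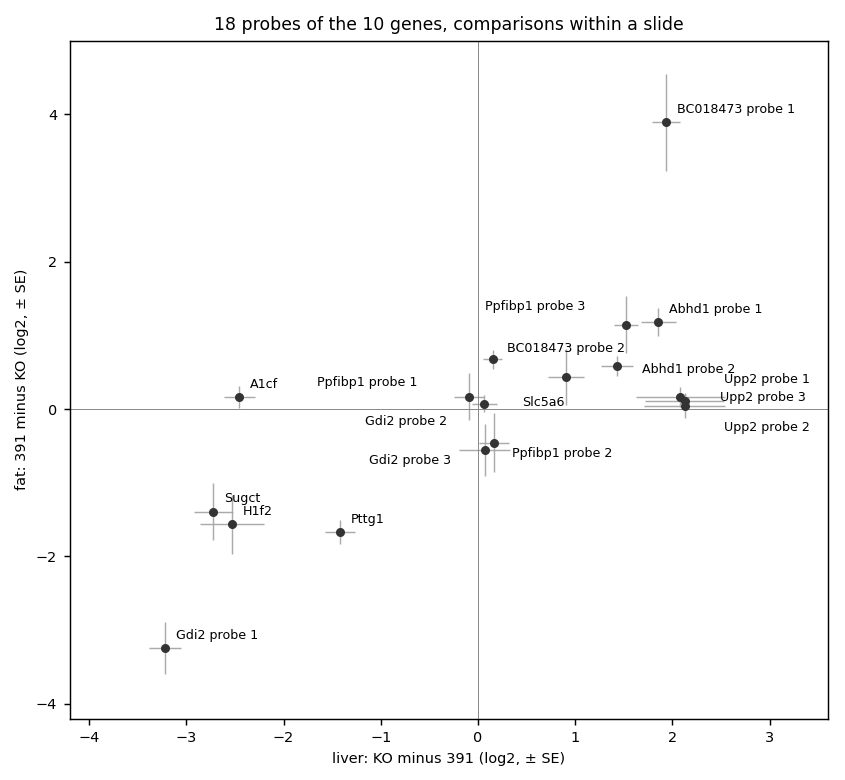
Differences of the 18 probes on the log2 scale, KO minus 391 in liver (horizontal axis) and 391 minus KO in fat (vertical axis), with bars of 1 SE from the limma fit. Gdi2, Pttg1, Sugct and H1f2 lie at the lower left, Abhd1, BC018473 and Ppfibp1 at the upper right, and A1cf and Upp2 near 0 on the fat axis.

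Over all probes, 522 lay apart in liver KO and 311 in fat 391, and 35 did so the same way in both, which is 6.7% of the first list and 11.3% of the second. Of these 35 probes, 6 belong to the genes described here. Liver KO and fat KO shared only 1 probe the same way, 0.192% of the 522 and 0.455% of the 220 that lay apart in fat KO, and it belongs to none of the 10 genes. Of the 84 probes called in liver KO against 391 and the 8 called in fat 391 against KO, 4 were in both (4.76% of the 84, 4 of the 8), all the same way: Gdi2, Pttg1, Abca5 and Thg1l. With 1 array left out the 84 became 27 (without 391 replicate 2 or KO replicate 2), 37 (KO replicate 1), 56 (KO replicate 3), 92 (391 replicate 1) or 271 (391 replicate 3). The 8 became 0 without 391 replicate 2 or KO replicate 2 of fat, which leaves no overlap, and 3 to 12 without any other. Abca5, a lipid transporter named here after its values were seen, fell by 0.54 ± 0.09 in liver KO (adjusted p = 0.028) and by 1.43 ± 0.15 in fat 391 (adjusted p = 0.0083). Thg1l, which adds guanylate to histidine transfer RNA, rose by 0.70 ± 0.10 (adjusted p = 0.0099) and 0.97 ± 0.12 (adjusted p = 0.031). The values are of the second of 3 Abca5 probes and the first of 2 Thg1l probes, and their other probes were not called in both.

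Probes of 1 gene can be set against each other within an array, which cancels what an array's probes have in common. The third Ppfibp1 probe divided by the mean of the others gave 2.59 to 2.74 in liver KO and 0.802 to 1.09 in the other livers. In fat the same quotient was 2.23 to 2.69 in 391 and 0.777 to 1.04 elsewhere. The 3 Ppfibp1 probes varied together over the fat arrays (569 replicate 3 gave 0.45, 0.23 and 0.25), and the third probe stood above the others by a like factor in each liver KO and fat 391 array.

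For Gdi2, the first probe divided by the mean of the others gave 0.123 to 0.133 in liver KO and 0.753 to 1.97 elsewhere in liver, and 0.0927 to 0.141 in fat 391 and 0.634 to 1.24 elsewhere in fat. For BC018473 the first probe divided by the second gave 2.72 to 4.46 in liver KO against 0.856 to 1.27, and 7.81 to 11.2 in fat 391 against 0.854 to 8.10, the highest of these being WT replicate 3. Without that array the fat 391 quotients stand far above the others, at most 1.25. Where the probes lie in each transcript is not given in the sources used here.

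**Figure D4:**
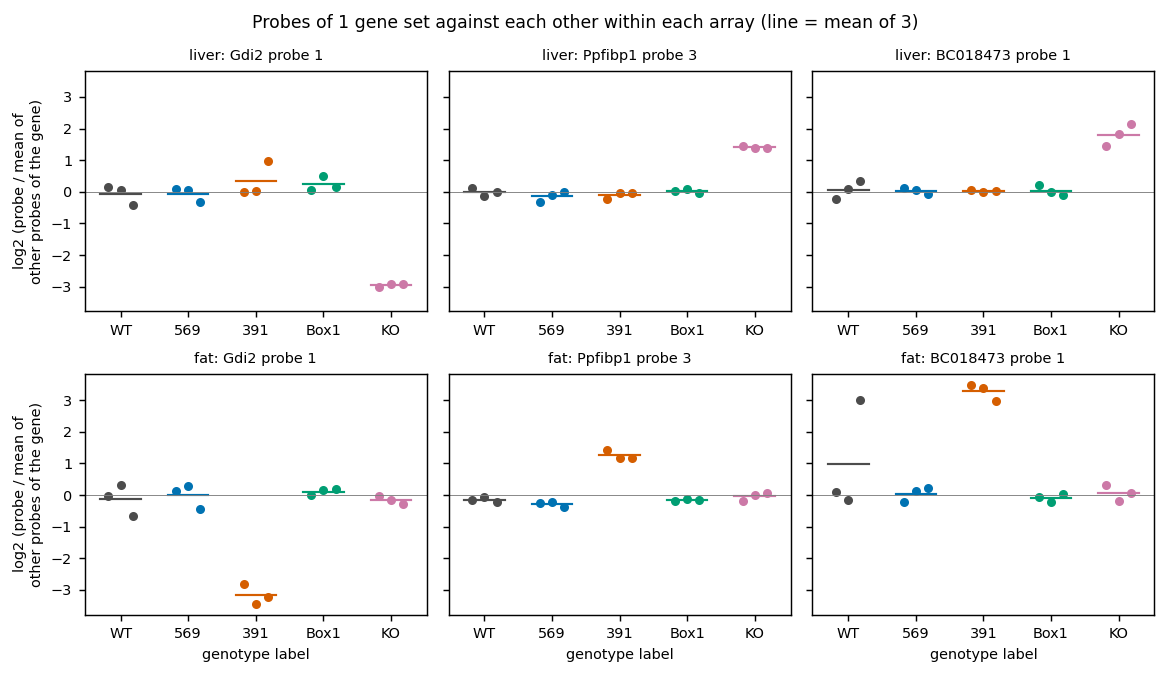
Log2 of 1 probe divided by the mean of the gene's other probes in the same array (vertical axis), by genotype label (horizontal axis), for Gdi2, Ppfibp1 and BC018473 in liver (upper row) and fat (lower row); points are arrays and lines are means of 3. The groups set apart are KO in liver and 391 in fat, with WT replicate 3 as an exception for BC018473 in fat.

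How closely the probes of a gene followed each other differed between the tissues. Over the 15 liver arrays the Upp2 probes correlated with Pearson r of 0.98 to 1, and over the 15 fat arrays with 0.11 to 0.53. The Abhd1 probes gave 0.96 in liver and 0.77 in fat. The BC018473 probes gave 0.33 in liver and 0.89 in fat, and the Ppfibp1 probes 0.19 to 0.61 in liver and 0.74 to 0.88 in fat. For Gdi2 the first probe gave -0.30 and 0.06 with the others in liver and -0.46 and 0.42 in fat. These points share their arrays and groups, and they are a description without a p.

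Within the pathways around the 10 genes few relatives were called. In 8 lists of relatives with 87 measured genes, limma called 1 gene in liver KO against 391 and 0 in fat 391 against KO, where 0.18% and 0.0172% of all probes were called. At an unadjusted p under 0.05 there were 14 and 4 of the 87, beside 8.19% and 6.7% of all probes. Each relative counts through 1 probe (for Dhtkd1, below, the more variable of its 2), whereas the background counts every probe. The shares are therefore unlike measures, and nothing is read from setting them side by side. Of 13 anaphase and spindle genes around Pttg1, 0 were called, with median differences of -0.01 in liver and 0.18 in fat (all probes 0.00 and -0.02). Of 7 other linker histones, 0 were called, with medians of 0.09 and 0.02.

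Of the metabolic lists, the 10 genes of lysine and glutaryl-CoA breakdown around Sugct held the only call. Dhtkd1, a subunit of the dehydrogenase complex for 2-oxoadipate, rose by 1.01 ± 0.18 in liver KO against 391 (2.33, 2.55 and 1.98 in KO, 1.09, 0.93 and 1.41 in 391, adjusted p = 0.037), on the more variable of its 2 probes, and stood at -0.45 ± 0.34 in fat 391 against KO (adjusted p = 0.86). Its other probe gave 1.06, 1.06 and 0.94 in liver KO. The 8 genes of apolipoprotein B editing, 12 of pyrimidine salvage and breakdown, 11 of biotin use, 11 liprins and partners and 15 alpha/beta hydrolases had 0 called in both comparisons. In liver KO against WT, Dhtkd1 (1.46 ± 0.18), Echs1 (0.54 ± 0.12), Upb1 (0.66 ± 0.14), Pccb (0.65 ± 0.15) and Abhd15 (0.74 ± 0.14) were called as higher, across slides. These are 5 of the 87 measured relatives, where limma called 1.93% of all probes, 671 up and 228 down. At an unadjusted p under 0.05 there were 18 of the 87, beside 12.7% of all probes, with the same limit of 1 probe per relative.

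The 10 genes lie on several chromosomes, by the RefSeq table. Gdi2, Sugct and H1f2 are on chromosome 13, Pttg1 and BC018473 on chromosome 11, Abhd1 and Slc5a6 on chromosome 5, A1cf on 19, Ppfibp1 on 6 and Upp2 on 2, whereas Ghr is on chromosome 15. Abhd1 and Slc5a6 are close, with 2 measured genes between them. Gdi2 and Sugct have 51 between them, and Sugct and H1f2 115. Thg1l, called in both tissues, shares the chromosome of Pttg1 with 11 measured genes between them. Of the 5 nearest measured genes on each side of each gene, 88 genes with 151 probes and none of them 1 of the 10, limma called 0 probes in liver KO against 391 and 0 in fat 391 against KO (20 and 11 of the 151 at an unadjusted p under 0.05, beside 8.19% and 6.7% of all probes). Their median size of difference was 0.11 and 0.12, beside 0.08 and 0.10 over all probes. Chromosome 13 held 11 of the 69 calls with a gene symbol in liver KO against 391, 15.9% of the calls beside 3.89% of the probes, and 3 of these 11 are Gdi2, Sugct and H1f2 themselves. Chromosome 11 held 10 of the 69 (14.5%, beside 7.64% of the probes) and 3 of the 7 such calls in fat 391 against KO. Of these, 2 of the 10 are Pttg1 and BC018473, and 1 of the 3 is Pttg1. In liver, chromosomes 5, 7, 10 and 19 also held a larger share of the calls than of the probes. These shares rest on lists of calls whose length changes with single arrays, as given above.

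The genes whose pattern was most like that of the 10 were ranked by Pearson r over the 30 arrays with the mean of 1 probe per gene, each turned to be high in liver KO, over 32776 named probes. This mean was 2.15 to 2.28 in liver KO, 1.32 to 1.49 in fat 391 and -0.50 to 0.46 in all other arrays, in SD units. Its height in liver KO follows from how the genes and probes were chosen and turned, so nothing is read from it. The 10 highest were Itga9 (0.86), Cptp (0.86), Thg1l (0.85), Per3 (0.83), Adat2 (0.82), Galnt11 (0.77), Nmrk1 (0.76), Marveld1 (0.74), St14 (0.74) and Klf1 (0.72). The 5 lowest were Mrps12 (-0.85), Psmd8 (-0.82), 1190007I07Rik (-0.76), Apoc2 (-0.75) and 2610507I01Rik (-0.75). Each r is of 1 probe. Itga9, Per3 and St14 have 3 probes, and Cptp, Thg1l, Galnt11, Marveld1, Mrps12 and 2610507I01Rik have 2. Values of their other probes are not given here. Since the arrays fall into a standing group and the rest, r is a description, and with ranks in place of values only 2 of the 10 highest stay among the 10 highest.

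In some of these genes the replicates of the standing group were unequal in both tissues, with 2 close values and 1 higher value. Psmd8, a subunit of the proteasome lid, gave 0.16, 0.16 and 0.63 in liver KO and 0.13, 0.11 and 0.46 in fat 391. Mrps12, a mitochondrial ribosomal protein, gave 0.40, 0.39 and 0.70 and then 0.42, 0.41 and 0.72. 1190007I07Rik gave 0.85, 0.45 and 0.50 in liver KO and 0.69, 0.40 and 0.41 in fat 391. For 2610507I01Rik the values were 0.53, 0.56 and 0.78 and then 0.56, 0.54 and 0.86. Apoc2 gave 0.13, 0.14 and 0.71 in liver KO but 0.67, 0.81 and 0.79 in fat 391, without that shape. Replicate numbers follow the order of the records and pair no liver array with a fat array, so this is given as values only. Psmd8 and Mrps12 share chromosome 7, with 15 measured genes between them.

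Cptp, a ceramide-1-phosphate transfer protein, gave 3.14, 2.92 and 3.42 in liver KO and 1.91, 1.71 and 1.84 in fat 391, and WT replicate 3 was high as well, at 2.98 in liver and 1.66 in fat. Per3, of the circadian clock, gave 3.39, 2.81 and 3.46 and then 2.09, 1.31 and 1.64. Adat2, of transfer RNA editing, gave 1.87, 1.86 and 1.52 and then 2.59, 1.91 and 1.90, and in fat it rose by 1.22 ± 0.16 in 391 against KO (adjusted p = 0.037). St14 and Klf1 were alike through liver alone, since their fat 391 ratios were 0.94 to 1.08 and 1.06 to 1.09.

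**Figure D5:**
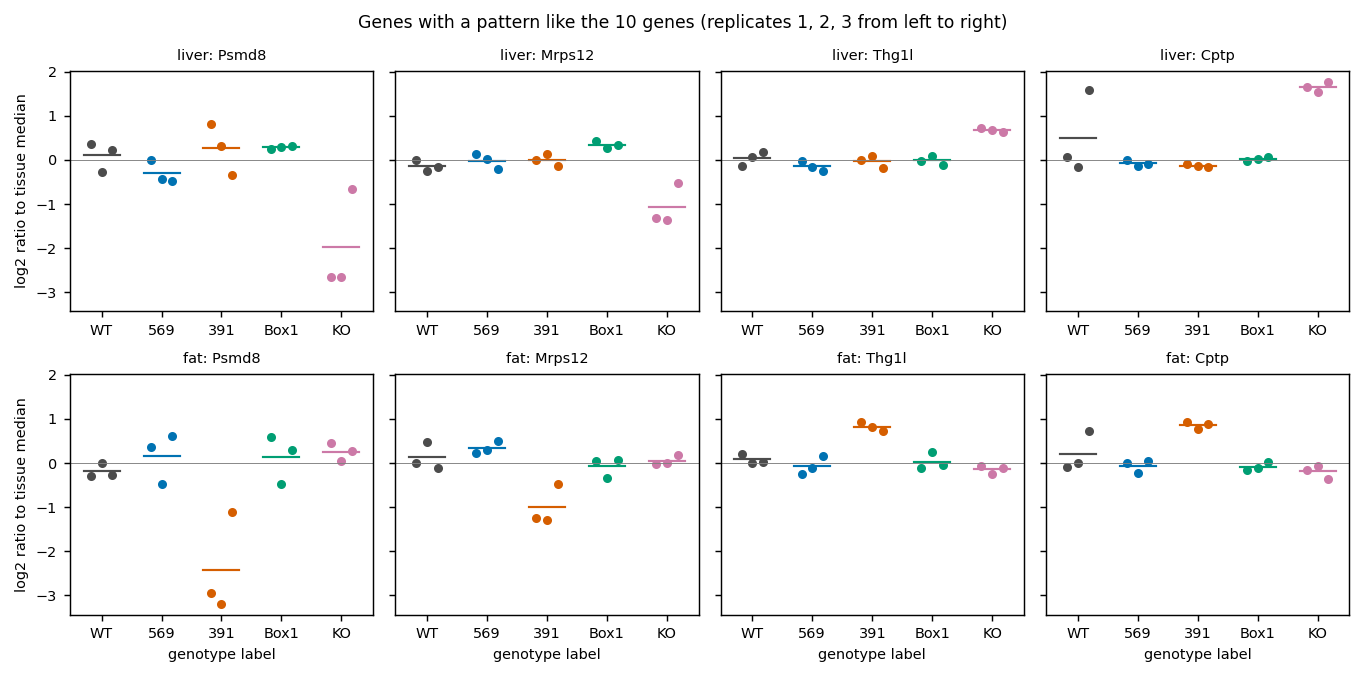
Log2 ratio to the tissue median (vertical axis) by genotype label (horizontal axis) for Psmd8, Mrps12, Thg1l and Cptp in liver (upper row) and fat (lower row); points are replicates 1, 2 and 3 from left to right and lines are means. Liver KO and fat 391 stand apart for each gene except Cptp in liver, where WT replicate 3 reaches 2.98 as a ratio.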

How the data were processed

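Total RNA of liver and subcutaneous fat was run on Illumina bead arrays, per the labels' protocols. The deposited values are ratios: the authors divided every probe by the median of the tissue's 15 arrays. This is read from the values, since the median is 1 for all 46643 probes in each tissue. How background and normalization were handled is not given in the sources used here, and signal over background is unknown. Probes were named through the platform annotation.

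Linear models of the log2 ratios used limma 3.58.1 (lmFit, eBayes) under R 4.3.3, 1 fit per tissue over its 5 genotypes, with two-sided tests and Benjamini-Hochberg adjustment over 46643 probes. Every probe was kept. The script was tested on simulated data. The members and all gene lists were chosen with earlier results of these data known, so calls in fat are no independent support. Genes named by likeness are the 10 of highest and 5 of lowest Pearson r over 30 arrays, and called list members and neighbours are named. A gene list around Gdi2 is not reported here. Alternatives were quantile normalization, array weights, a robust variance prior, other sets of arrays or probes, leaving out each array, Spearman ranks, and leaving out the liver 391 arrays with pancreatic transcripts. Leaving out 569 replicate 3 in fat, and those liver 391 arrays in the comparisons of KO with WT, Box1 and 569, was chosen after seeing the data. With 3 arrays in each group, precision is limited by their number.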

Additional observations from a re-analysis of the deposited data

Results flagged for a closer look

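For 8 probes of 7 genes the difference between KO and 391, in the same direction in every array of a tissue, was opposite in liver and fat. The genes were chosen on liver KO values and the share over all probes was not computed, so nothing is read from this count. The difference between the tissues was not tested. KO minus 391 on the log2 scale was -3.22 in liver and 3.24 in fat for the first Gdi2 probe, -2.72 and 1.39 for Sugct, -1.42 and 1.67 for Pttg1, and -2.53 and 1.56 for H1f2, so these 4 genes were lower under the KO label in liver and lower under the 391 label in fat. It was 1.85 and -1.19 for the first Abhd1 probe, 1.43 and -0.58 for the second, 1.94 and -3.89 for the first BC018473 probe, and 1.52 and -1.15 for the third Ppfibp1 probe, which were higher under the KO label in liver and under the 391 label in fat.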

How the results depend on the processing

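The counts for liver KO against WT, 391, Box1 and 569 stayed within 1.5 times of 13, 9, 9 and 13 under every alternative run. In liver 391 against WT, 2 called probes became 0 with quantile normalization or the arrays of both groups alone, and 1 with array weights, with all 30 arrays in one fit or without both arrays with pancreatic transcripts. Leaving out 1 array gave 0 to 1. In Box1 against WT in liver, 0 became 2 with array weights and 1 with both groups alone, and 0 to 2 with 1 array left out. In fat 391 against KO, 2 became 7 with quantile normalization and 5 with both groups alone or with all 30 arrays, and 0 to 2 with 1 array left out. In fat 391 against WT, 2 became 4, 0 and 5 under these alternatives, and 0 to 3 with 1 array left out. Spearman ranks kept 2 of the 10 genes most alike. The cause was not tested. Of the single probes under all alternatives, 655 values kept their side of the threshold, 29 passed it, 18 lost it and 0 changed direction while called. Setting the lowest ratio to the top of its rounding interval was not run, since no probe of the 10 genes lies at 0.01 (their lowest ratio is 0.09).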
